A study of Homo sapiens and Mus musculus with 13 samples.

Results

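The comparison concerns 4 of the 13 libraries of the series, from a human acute myeloid leukaemia line, and its groups carry conflicting names. The members were chosen by the names of their deposited files: 2 files are named for the FKBP-tagged degron line with dTag and 2 for the same line with DMSO. The sample titles say otherwise. The 2 libraries whose files are named dTag are titled degron2 cells with DMSO, and the 2 whose files are named DMSO are titled OCI-AML3 cells with DMSO. Both naming schemes put the same libraries together, so every value below holds under either, but the comparison reads as dTag-13 against DMSO within the degron line by the file names, and as the degron2 line against OCI-AML3 under DMSO by the titles. Under the titles neither group received dTag-13. The libraries are called dTag-named and DMSO-named here, and "higher" and "lower" always describe the dTag-named libraries relative to the DMSO-named ones.

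OCI-AML3 is an established leukaemia line, and the labels give both groups the same mutations, in DNMT3A, NPM1 and NRAS. Its derivative degron2 carries an NPM1c that can be degraded. The study's design text gives 500 nM dTag-13 or DMSO for 24 h as the treatment of the degron line, and 25 nM Selinexor (KPT-330) or DMSO for 24 h as that of OCI-AML3, with biological duplicates in each group. Whether degron2 is a single clone is not given in the sources used here. The other 4 human libraries have files named for OCI-AML3 with DMSO (titled OCI-AML3 with Selinexor) and for OCI-AML3 with KPT (titled degron2 with dTag-13). They appear below only as values set beside the comparison.

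NPM1 encodes nucleophosmin, an abundant nucleolar chaperone that shuttles between nucleus and cytoplasm. The leukaemia mutant NPM1c gains a nuclear export signal, is carried out of the nucleus by the exportin XPO1 and accumulates in the cytoplasm, and leukaemias that carry it characteristically express HOXA and HOXB genes and their partner MEIS1. In a dTag degron the target protein is fused to a mutant FKBP12 domain, and a small molecule such as dTag-13 bridges this domain to the ubiquitin ligase subunit cereblon, so that the fusion is degraded by the proteasome. Degradation acts on the protein, so the NPM1 transcript itself would not check the treatment.

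The files list numbered clusters of UCSC transcripts in place of genes. Only 6 of 31848 clusters could be paired with a gene symbol, each through an alias in the RefSeq table and not by position. Levels of NPM1, FKBP1A, XPO1, the HOX genes, MEIS1 and the markers of myeloid maturation were therefore not analysed here, and neither the labelled line nor the degron tag was checked against a gene. The results describe how many clusters moved, by how much, at what abundance and in which libraries.

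Total expected counts were 9743255 and 9816252 in the dTag-named libraries and 14210732 and 16320229 in the DMSO-named libraries, against 12277424 to 17208221 in the other 4 human libraries. The dTag-named pair was thus the shallowest. Its median fragment lengths of 207.2 and 214.9 nt were also below those of the DMSO-named pair, 237.8 and 225.6 nt. Depth and fragment length moved with the groups, and the part of depth in the results was not tested. The 10 most abundant clusters took 5.26% to 5.78% of the counts in all 4 libraries. Replicates differed by a median of 0.168 in log2(CPM + 1) in the dTag-named pair and 0.129 in the DMSO-named pair, where CPM is the usual depth-normalised read count, here with TMM scaling. Those are differences between single libraries, a measure unlike the distances between means of 2 libraries that follow. The means of the 2 groups differed by a median of 0.215. The same distance was 0.285 between the 2 conditions named for OCI-AML3, and 0.299 to 0.433 between groups whose file names give different lines. By the titles, 0.215 lies between different lines, while the 2 groups of OCI-AML3 were 0.299 apart and the 2 of degron2 0.392. Which naming is right was not tested.

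A minority of clusters passed the test, and these are the clusters called changed here. With 2 libraries per group this is a count of detections, and clusters that did not pass may differ as well. By edgeR's quasi-likelihood test 1114 of the 13590 clusters tested (8.20%) had an adjusted p under 0.05, and their libraries did not overlap between the groups. Of these, 519 (3.82%) were higher and 595 (4.38%) lower. Scaled by library totals alone, 598 were higher and 455 lower, and limma on TPM gave 349 higher and 241 lower, so the direction with more clusters turned with the scaling. Across all tested clusters 7952 (58.5%) had groups that did not overlap, 4131 upward (30.4%) and 3821 downward (28.1%). The unadjusted p was under 0.05 in 3192 (23.5%).

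The sizes of change were as follows. Among the 1114 clusters, 130 changed by less than 1.5-fold, 578 by 1.5- to 2-fold, 317 by 2- to 4-fold, 76 by 4- to 16-fold and 13 by 16-fold or more. Changes of at least 2-fold numbered 406 (2.99% of those tested), 199 higher (1.46%) and 207 lower (1.52%). This count was lower without single libraries, at 245 of 327 and 230 of 294 changed clusters without DMSO-named replicate 1 or 2 and at 196 of 256 and 284 of 373 without dTag-named replicate 1 or 2, so most clusters that passed in those smaller fits had changed at least 2-fold. With limma on TPM it was 207 of 590. The median log2 fold change was 0.87 among the clusters that rose and -0.84 among those that fell, against 0.016 over all clusters tested. Over all tested clusters the quartiles were -0.24 and 0.27, and the 5% and 95% quantiles -0.81 and 0.90.

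**Figure D1:**
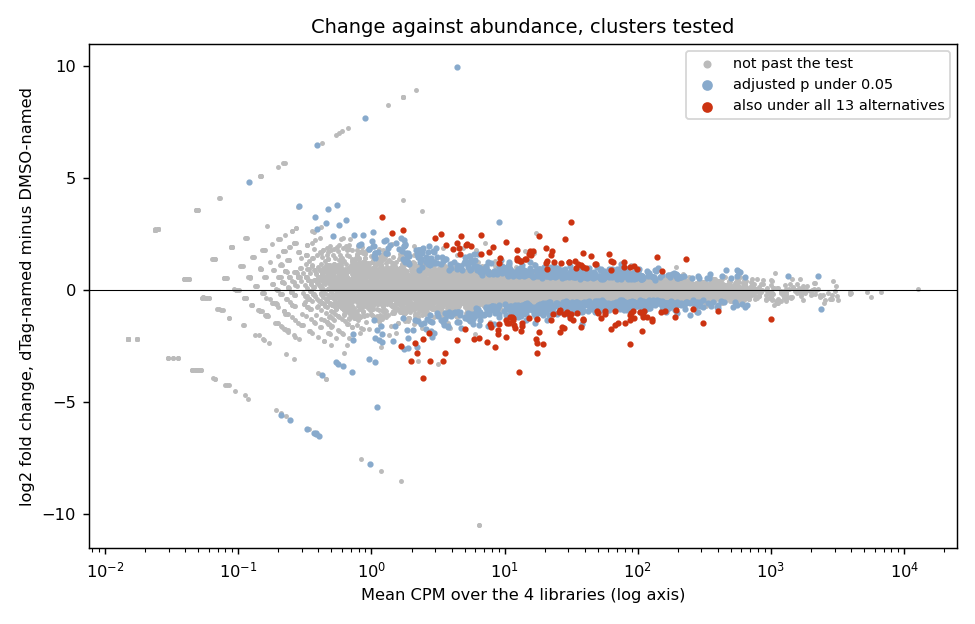
Log2 fold change (dTag-named minus DMSO-named) against mean CPM over the 4 libraries, on a log axis, with 1 point per cluster tested. Blue points passed the test, and red points are the 158 that passed it under every alternative as well; the fan of points at the left is formed by clusters with few counts.

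The number of changed clusters fell whichever of the 4 libraries was left out. Each such fit leaves 1 library in a group and has less power. It therefore cannot tell dependence on a particular library from that loss. Leaving out DMSO-named replicate 1 or 2 left 327 or 294, and leaving out dTag-named replicate 1 or 2 left 256 or 373. Of the 1114 clusters, 166 passed in the same direction whichever of the 4 libraries was left out. A total of 158 passed under all 13 alternatives, 67 of them higher (median log2 fold change 1.45) and 91 lower (median -1.47). The smallest change among these 158 was 1.80-fold upward and 1.83-fold downward. These clusters had to pass the fits of less power too, so their sizes describe that selection. Their median abundance was 20.4 CPM for the rises and 26.2 CPM for the falls, close to the 22.3 CPM of all tested clusters.

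**Figure D2:**
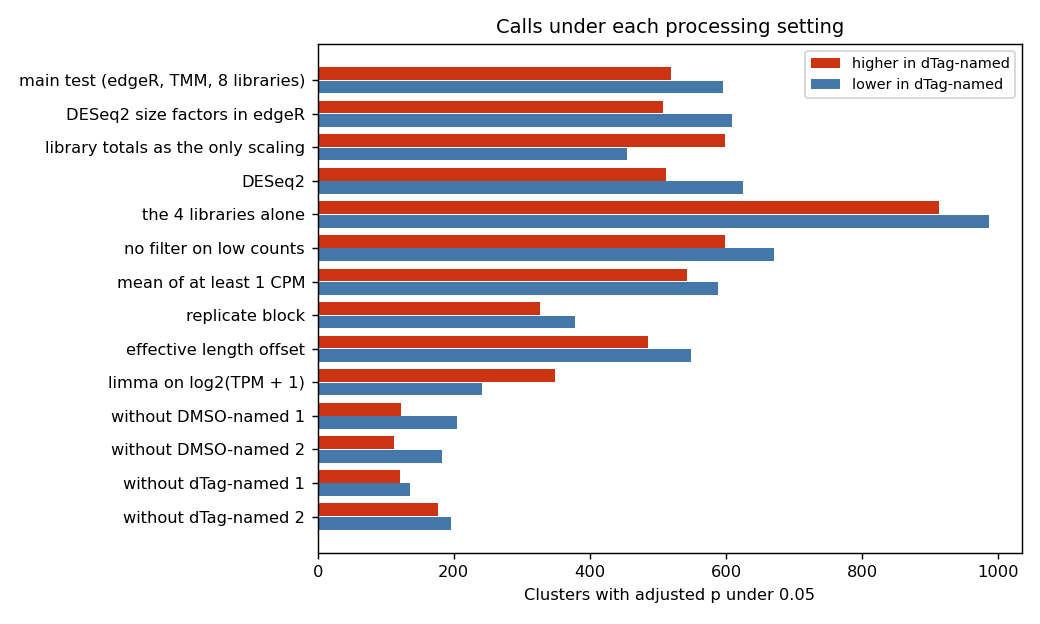
Number of clusters with an adjusted p under 0.05, higher (red) and lower (blue) in the dTag-named libraries, for the main test and each of the 13 alternatives. The count was lowest, 256 in all, without dTag-named replicate 1 and highest, 1898, in a fit of the 4 libraries alone.

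The individual clusters described next are the 2 largest rises and 2 largest falls among 919 changed clusters of at least 5 CPM. They are extremes and do not stand for the typical changed cluster. Cluster 1744 is a single transcript of 577 nt. It stood at 46.4 and 66.5 CPM in the dTag-named libraries (467 and 696 counts) and at 5.67 and 7.93 CPM in the DMSO-named libraries (81 and 133 counts). Both dTag-named libraries were above every other human library, since those named for OCI-AML3 held 2.88 and 6.56 CPM with DMSO and 1.36 and 0.895 CPM with KPT. The rise was 8.25-fold, from 6.80 ± 1.60 to 56.4 ± 14.2 CPM (SD, n = 2; log2 fold change 3.04, SE 0.324, adjusted p = 0.000868, edgeR), and it passed under all alternatives. Between the libraries named for OCI-AML3, this cluster was lower with KPT (log2 fold change -2.08, SE 0.444, adjusted p = 0.00839, edgeR).

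Cluster 11315 holds 6 transcripts. Its counts rose from 22 and 40 in the DMSO-named libraries to 169 and 160 in the dTag-named libraries, or from 1.96 ± 0.598 to 16 ± 1.06 CPM (SD, n = 2), an 8.07-fold rise (log2 fold change 3.01, SE 0.274, adjusted p = 0.00016, edgeR). All 4 libraries named for OCI-AML3 were below 1 CPM, the highest at 0.906. The deposited TPM, which divides counts by length, went the other way, at 26.2 and 14.6 in the DMSO-named libraries and 6.32 and 14.5 in the dTag-named libraries. The abundance-weighted length of the cluster was 249.2 and 433.3 nt in the DMSO-named libraries against 4390 and 2029 nt in the dTag-named ones, its reads having been assigned to shorter transcripts in the former. With each library's effective length as an offset the log2 fold change turned to -0.97 (adjusted p = 0.194, edgeR). The lengths in the DMSO-named libraries rest on only 22 and 40 reads, and the difference per length did not pass with limma on TPM either (log2 fold change -0.95, adjusted p = 0.16, limma). The cluster was the only changed cluster that reversed with this offset. Among 10675 tested clusters of more than 1 transcript, 10 had lengths at least 2-fold apart with non-overlapping groups, 8 of them longer in the dTag-named libraries, and 1 of the 10 (10%, against 8.20% of all tested clusters), this one, changed in counts.

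Of the 2 falls, cluster 19654 had the closer replicates. Cluster 19654, with 2 transcripts and a mean length of 3894 nt, had 437 and 521 counts in the DMSO-named libraries and 45 and 44 in the dTag-named libraries. It fell 7.10-fold, from 30.8 ± 0.349 to 4.33 ± 0.188 CPM (SD, n = 2; log2 fold change -2.83, SE 0.200, adjusted p = 8.09e-05, edgeR). Its DMSO-named libraries stood above every other human library. Those named for OCI-AML3 were at 5.35 and 5.70 CPM with DMSO and 3.49 and 2.45 CPM with KPT, near the dTag-named level. Cluster 20883, with 3 transcripts, fell 12.7-fold, from 18.4 and 28.8 CPM (263 and 483 counts) to 1.79 and 1.91 CPM (18 and 20 counts; log2 fold change -3.67, SE 0.330, adjusted p = 0.000157, edgeR). Again the DMSO-named libraries were the highest of the 8, with the libraries named for OCI-AML3 between 1.79 and 4.53 CPM. Both falls passed under all alternatives.

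**Figure D3:**
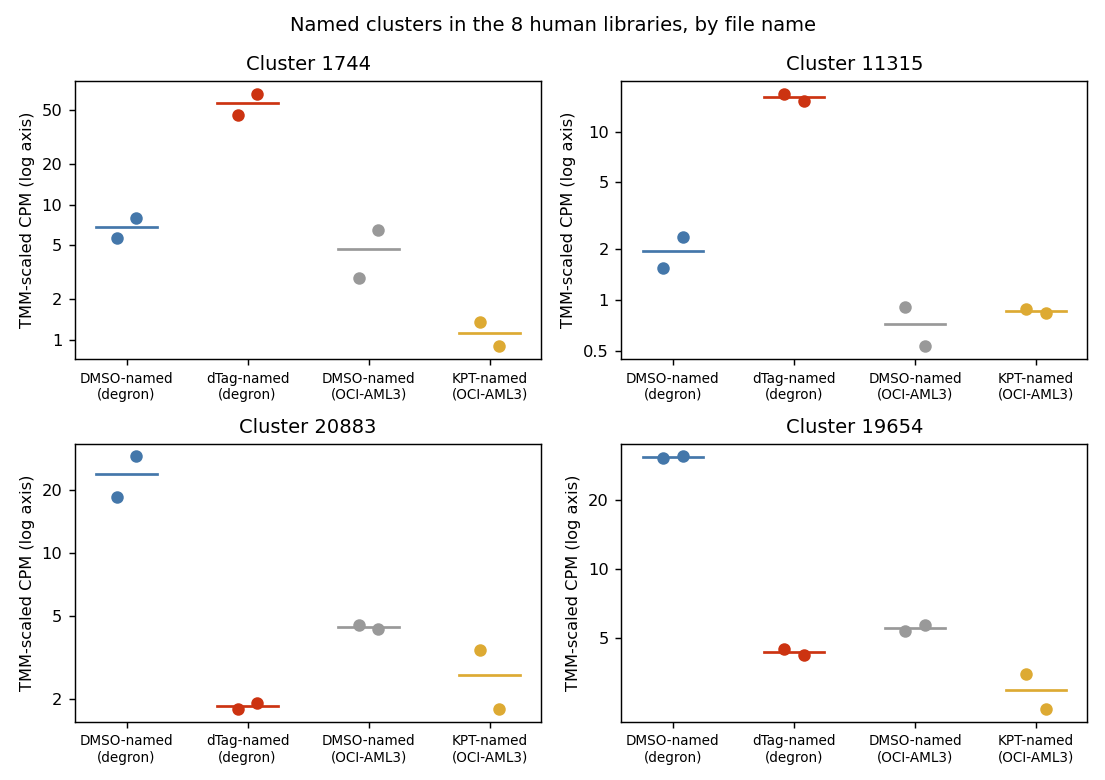
TMM-scaled CPM (log axis) of the 4 named clusters in the 8 human libraries, grouped by file name, with 1 point per library and a line at the mean of each pair. For clusters 1744 and 11315 the dTag-named pair is the highest of all, and for clusters 20883 and 19654 the DMSO-named pair is.

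This layout was counted over all changed clusters. Of the 519 that rose, 237 (45.7%) had both dTag-named libraries above all other 6 human libraries, and 266 (51.3%) had both DMSO-named libraries below all other 6. Over all tested clusters these layouts were found in 11.6% and 10.4%. Of the 595 that fell, 238 (40.0%) had the dTag-named libraries below all others and 269 (45.2%) had the DMSO-named libraries above all others, against 9.54% and 9.60% of all tested clusters. Because the clusters were chosen for their difference between these groups, the larger shares describe them and carry no test.

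Falls outnumbered rises among the abundant clusters. At 100 CPM or more 60 clusters rose and 127 fell, 2.70% and 5.72% of the 2222 tested. At 1 to 10 CPM 152 rose and 118 fell, 4.57% and 3.55% of 3328. At 10 to 100 CPM 289 rose and 334 fell, of 6672. The median log2 fold change of all tested clusters also declined with abundance. It was 0.085 under 1 CPM, 0.082 at 1 to 10 CPM, 0.0089 at 10 to 100 CPM and -0.04 at 100 CPM or more. The part of this drift in the counts of rises and falls was not tested. Falls outnumbered rises at 100 CPM or more under every alternative, by 99 to 77 under scaling by library totals alone and by 48 to 37 with limma on TPM. The excess of rises at 1 to 10 CPM turned to 40 rises and 51 falls without DMSO-named replicate 1 and to 35 and 42 without replicate 2. Under 1 CPM 34 of 1368 clusters changed (2.49%), with a median absolute log2 fold change of 3.36, against 0.66 at 100 CPM or more.

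**Figure D4:**
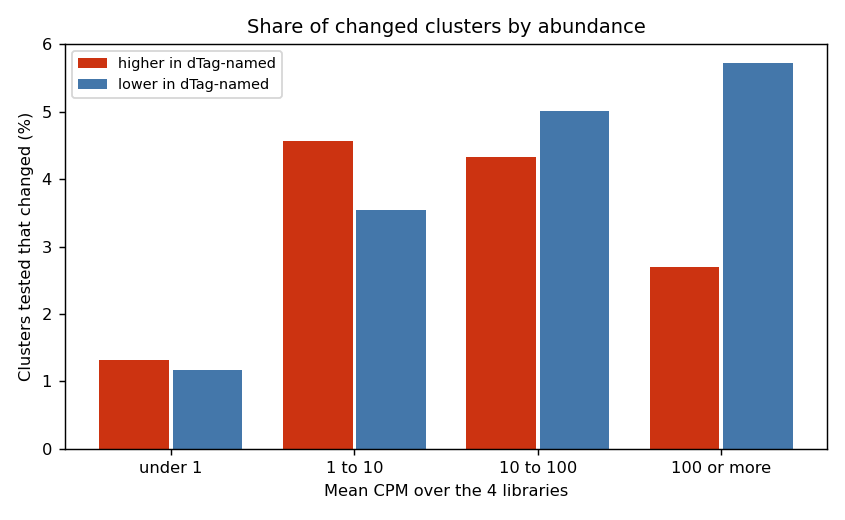
Percentage of tested clusters that were higher (red) or lower (blue) in the dTag-named libraries, by mean CPM over the 4 libraries. Falls exceed rises most at 100 CPM or more (5.72% against 2.70%), and the fewest clusters changed under 1 CPM.

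The share of changed clusters was next counted by length and by number of transcripts. The share that changed was 5.58% for clusters under 1000 nt, 7.10% from 1000 to 2000 nt, 9.02% from 2000 to 4000 nt and 8.53% at 4000 nt or more. The median log2 fold change stayed between 0 and 0.041 in these classes, without a shift of the short clusters. The share was 8.16% for clusters of 1 transcript and 8.41% for those of 7 or more. Clusters with an expected count that was not whole, by more than 0.005, in at least 1 of the 4 libraries, whose reads RSEM had divided between clusters, changed in 200 of 3025 cases (6.61%), and the others in 914 of 10565 (8.65%).

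The fitted changes of 16-fold or more came from clusters with few reads. Of these 13 clusters 4 were higher and 9 lower, and 12 had no count in either library of the lower group. The highest mean abundance among them was 4.41 CPM and the median 0.384 CPM. Counts in the group with reads ranged from 2 to 91, so the fitted folds depend on the prior count and are not given. Over all 31848 clusters, 3 had no count in the DMSO-named libraries and at least 20 in each dTag-named library, and 3 showed the opposite. In 4 of these 6 the replicates named for OCI-AML3 differed at least 16-fold within a condition, with 1 count standing for a 0. One pair of the 6 held the same expected counts in all 8 libraries: 147 and 260 in the DMSO-named, 0 and 0 in the dTag-named, 210 and 6 in the OCI-AML3 libraries named DMSO and 1 and 185 in those named KPT. Neither cluster of this pair passed the test. Among clusters with a count in any human library, 2683 had deposited counts exactly equal to another's in all 8 libraries. Of these, 348 were tested and 13 changed (3.74%, against 8.20% of all tested clusters).

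The clusters that passed the test made up a small part of the transcripts. The 519 that rose summed to 13383 and 14317 TPM in the DMSO-named libraries and 24151 and 25231 TPM in the dTag-named ones. The 595 that fell summed to 41919 and 44716 TPM and to 24586 and 27143 TPM. These sums differ by construction, since the clusters were chosen on the same libraries. The 4 libraries named for OCI-AML3 did not enter that contrast, though they shared the estimate of the spread. In them the same 519 clusters summed to 15508 and 14150 TPM with DMSO and to 22655 and 20316 TPM with KPT. The 595 summed to 43193 and 41531 TPM with DMSO and to 30525 and 26821 TPM with KPT. Both sums separated these libraries by their file names in the same direction as in the degron pair. With 2 libraries against 2, an exact test cannot reach the threshold and none is given. By the titles, the same sums compare degron2 with dTag-13 (named KPT) and OCI-AML3 with Selinexor (named DMSO). Under that naming both contrasts set degron2 against OCI-AML3.

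**Figure D5:**
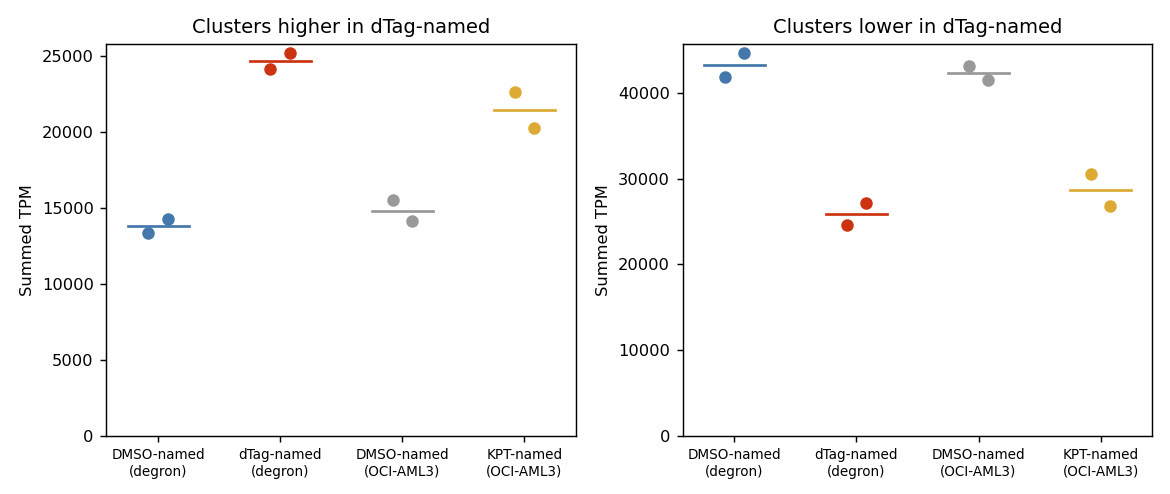
Summed deposited TPM of the 519 clusters higher (left) and the 595 lower (right) in the dTag-named libraries, in each of the 8 human libraries, with a line at the mean of each pair. The libraries named for OCI-AML3 with KPT lie on the dTag-named side of those named for OCI-AML3 with DMSO in both panels.

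Cluster by cluster, 405 of the 519 that rose (78.0%) had a positive fold change between the libraries named KPT and DMSO for OCI-AML3, with a median log2 fold change of 0.47, and 505 of the 595 that fell (84.9%) had a negative one, with a median of -0.67. Over all tested clusters 51.3% were positive and the median was 0.017. Cluster 1744, the largest rise among changed clusters of at least 5 CPM, was among the exceptions. Cluster 19654 was lower in both contrasts (log2 fold change -0.90, SE 0.213, adjusted p = 0.0112, edgeR, KPT minus DMSO as named for OCI-AML3). By the titles, both contrasts set degron2 against OCI-AML3. The first then has DMSO on both sides, and the second dTag-13 against Selinexor. A shared direction could then be a difference between lines, which cannot be told apart here from a shared response to treatment.

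Of the 6 clusters paired with a symbol, 2 were tested and none changed. All 6 symbols belong to long noncoding RNAs, most of them antisense to the gene in their name, and whether the counting used strand is not given in the sources used here. The cluster paired with SLC9A3-AS1 had 22.0 and 24.2 CPM in the dTag-named libraries and 21.1 and 19.3 CPM in the DMSO-named ones (log2 fold change 0.20, SE 0.168, adjusted p = 0.525, edgeR). The cluster paired with IL12B-AS1 had 213 and 234 CPM against 173 and 192 CPM (log2 fold change 0.29, SE 0.135, adjusted p = 0.216, edgeR). Its groups did not overlap, which was also true of 58.5% of all tested clusters. This pairing, like the others, rests on an alias and was not checked by position, so the values may not be those of the named RNA. ACTA2-AS1 had 1 and 0 counts in the dTag-named and 0 and 1 in the DMSO-named libraries, and MIR7-3HG, ZNF350-AS1 and HNF4A-AS1 had no count in any of the 4, too few reads to show a difference.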

How the data were processed

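The 8 human RNA libraries were prepared with the Swift rapid kit, per the labels' protocols. STAR 2.6.1, RSEM, DESeq2 and the builds mm9 and hg19 are listed in the submitters' processing notes with no roles given. The authors deposited expected counts per cluster of UCSC transcripts, with TPM and lengths, per the file headers. Expected counts, RSEM's estimates that need not be whole, were rounded first.

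A single edgeR fit held all 8 libraries in 4 groups (edgeR 4.0.16, R 4.3.3, filterByExpr, TMM, robust quasi-likelihood, Benjamini-Hochberg adjustment, threshold 0.05) over the 13590 clusters that passed the filter, of 31848. The common biological coefficient of variation was 0.136. Groups came from the titles, which put the same libraries together as the file names do. SEs were obtained from the fold change and its quasi-likelihood F statistic, as |log2 fold change| / √F. The numbered clusters in the text are the 2 largest rises and 2 largest falls among changed clusters whose groups did not overlap and whose mean reached 5 CPM; clusters paired with a symbol were all named. The gene lists and cell type markers that had been set could not be used. The members, rules and lists were chosen with earlier results of these data known. The design text calls the replicates biological duplicates, with no word on separate cultures, so the p-values may measure technical spread only. Their chi-square per degree of freedom was 13.2 in the dTag-named pair and 12 in the DMSO-named pair, above counting noise. Alternatives used DESeq2 1.42.0 and limma 3.58.1 on log2(TPM + 1). Counts were simulated in a single run over 13590 clusters, with 50 changed at each fold in the dTag-named group and the other groups alike. The simulated spread was estimated over all 8 human libraries, not over the 4 compared alone. The test recovered 14% of 1.5-fold, 48% of 2-fold, 80% of 4-fold and 96% of 8-fold changes. A smaller share of clusters was changed there than was called in the data, so recovery in the data may differ.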

Additional observations from a re-analysis of the deposited data

How the results depend on the processing

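The count of 1114 changed clusters stayed within 1.5 times under DESeq2 size factors, library totals, DESeq2, both other filters on low counts and the effective length offset. A similar count did not mean the same clusters. Of the 1114, 936 also passed with DESeq2, and 965 (library totals) to 1102 (DESeq2 size factors) under the others of these settings. The count was 1898 in a fit of the 4 libraries alone and 590 with limma on log2(TPM + 1). The main fit shared its estimate of the spread with the other 4 human libraries. Between replicates, chi-square per degree of freedom was 23.7 in the OCI-AML3 pair named DMSO and 34.2 in that named KPT. It was 12 in the DMSO-named and 13.2 in the dTag-named pair. The causes of both counts were not tested. Leaving out 1 of the 4 libraries gave 256 to 373, where the lone library left in a group is assumed to vary like the other groups. With a replicate block common to all 8 libraries the count was 704, of which 693 were among the 1114. A shared replicate effect was fitted to all groups, so this count does not show what pairing within the comparison alone would do. The replicate numbers share only a number in the labels: deviations of same-numbered libraries correlated at 0.314 between these 2 groups and at -0.252 to -0.0474 between the other pairs of groups. The log2 fold change of cluster 11315 turned from 3.01 to -0.97 with the effective length offset and to -0.95 with limma on TPM, as the lengths in its construction imply. The other 3 numbered clusters kept direction and call under all 13 alternatives. In simulation at the depths of the 8 human libraries, 14% of the 50 clusters changed 1.5-fold were recovered. The simulated spread was estimated over all 8 libraries and is not that of the 4 compared alone. A smaller share of clusters was changed there than was called in the data, so this recovery holds for the simulated setting. The part of depth in it was not tested.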
